A study of Mus musculus with 8 samples.

Results

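The genes described here are 10 defence genes of the gut lining: the lectins Reg3a, Reg3b, Reg3g, Reg1 and Reg4, the serum amyloid A genes Saa1, Saa2 and Saa3, the lipocalin gene Lcn2 and the receptor gene Pigr. They were chosen by symbol, and all 10 were found among the 23366 gene symbols of the 8 count tables. RNA was sequenced from intestinal epithelial cells of 6-week-old male mouse littermates, sorted by flow cytometry as CD326-positive cells (CD326 is the epithelial surface protein EpCAM) that were either CD44-positive, which enriches for crypt cells (CD44plus), or CD44-negative, which enriches for villus cells (CD44minus). Sox4cKO animals carried Sox4fl/fl and vilCre+/-, in which the villin promoter drives Cre in the gut epithelium from embryonic life on, and control animals carried Sox4fl/fl without Cre. The floxed alleles are thus common to all groups, and no group carried Cre alone. Each of the 4 groups (Sox4cKO CD44plus, control CD44plus, Sox4cKO CD44minus and control CD44minus) has 2 libraries of 50000 sorted cells, 1 from each of 2 animals, and each animal gave 1 library of each gate. Values are given for replicate 1 and then replicate 2 of a group.

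Reg3b and Reg3g are secreted C-type lectins that bind bacterial surfaces and kill or hold off bacteria near the epithelium. In enterocytes and Paneth cells their genes are switched on by microbial signals, largely through interleukin-22, its receptor and the transcription factor STAT3. The SAA proteins are acute-phase proteins that bind retinol and are also made in the gut epithelium, lipocalin 2 captures bacterial siderophores, and the polymeric immunoglobulin receptor, the product of Pigr, carries dimeric IgA through the epithelial cell into the lumen.

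Reg3b, Reg3a, Reg1 and Reg3g lie near each other on chromosome 6 of GRCm38, from 78370657 to 78468872, a span of 98.2 kb that also holds Reg3d and Reg2. Reg3b (78370657 to 78373466), Reg3a (78380709 to 78383827) and Reg1 (78422711 to 78428667) are on the plus strand, and Reg3g (78466269 to 78468872) is on the minus strand. Reg4 is apart from them on chromosome 3 (98222156 to 98236748, plus strand). Saa3, Saa1 and Saa2 are neighbours on chromosome 7 (46711998 to 46715700, 46740497 to 46742980 and 46751790 to 46754313), Lcn2 is on chromosome 2 (32384633 to 32388252) and Pigr on chromosome 1 (130826684 to 130852249). Counts were taken over exons of these genes, and none of the 10 overlaps another annotated gene. The exons of the Reg genes and of Lcn2 share no 50-base window with another gene's transcripts, whereas 14.8% of such windows in Saa1 and 13.3% in Saa2 occur elsewhere, mostly in each other, so a few reads of that pair may have been lost or split.

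Promoters are shown for Reg3b and Reg3g, whose levels moved together in all 8 libraries, and for Saa1 and Saa2, which share most of their promoter but differed in reads. They are RefSeq sequences of GRCm38.p6, 250 bases before to 50 bases after the annotated start, 5′ to 3′ on the gene's own strand, at chr6:78370635-78370934 for Reg3b, chr6:78468825-78469124 for Reg3g, chr7:46742931-46743230 for Saa1 and chr7:46751583-46751882 for Saa2. Capitals mark matches to the STAT-type palindrome TTCNNNGAA and to the TATA-box letters TATAAA, each searched on both strands.
Reg3b: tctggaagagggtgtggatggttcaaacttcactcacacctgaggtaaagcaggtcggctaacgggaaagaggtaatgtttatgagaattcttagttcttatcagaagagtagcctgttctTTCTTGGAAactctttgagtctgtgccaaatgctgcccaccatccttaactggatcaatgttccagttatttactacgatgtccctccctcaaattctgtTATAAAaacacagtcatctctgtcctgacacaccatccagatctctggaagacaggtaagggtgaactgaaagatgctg
Reg3g: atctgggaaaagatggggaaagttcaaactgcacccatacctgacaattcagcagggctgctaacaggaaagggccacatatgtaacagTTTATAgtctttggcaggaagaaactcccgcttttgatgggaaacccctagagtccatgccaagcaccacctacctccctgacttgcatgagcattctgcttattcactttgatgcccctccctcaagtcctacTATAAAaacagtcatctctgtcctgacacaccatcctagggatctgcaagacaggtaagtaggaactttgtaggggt
Saa1: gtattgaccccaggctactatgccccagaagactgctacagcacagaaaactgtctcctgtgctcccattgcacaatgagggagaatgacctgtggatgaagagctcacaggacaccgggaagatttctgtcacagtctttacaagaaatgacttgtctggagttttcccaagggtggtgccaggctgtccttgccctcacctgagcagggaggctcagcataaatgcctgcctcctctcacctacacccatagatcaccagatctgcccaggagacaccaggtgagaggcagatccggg
Saa2: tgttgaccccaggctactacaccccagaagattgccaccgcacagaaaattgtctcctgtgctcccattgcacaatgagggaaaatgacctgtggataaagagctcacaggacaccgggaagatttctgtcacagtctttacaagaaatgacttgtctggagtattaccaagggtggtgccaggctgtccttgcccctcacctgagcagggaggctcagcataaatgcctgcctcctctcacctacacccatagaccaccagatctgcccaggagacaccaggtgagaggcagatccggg

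The Reg3b promoter holds TATAAA 29 bases before the start and a match to TTCNNNGAA 129 bases before it. The Reg3g promoter holds TATAAA 27 bases before the start, the same letters on the other strand (TTTATA) 161 bases before it, and no match to TTCNNNGAA. Aligned end to end, the 2 windows are 69% identical, and the longest run they share, acagtcatctctgtcctgacacaccatcc, spans 29 bases across the start. The Saa1 and Saa2 windows are 95.4% identical, with a shared run of 65 bases and no match to either motif. Over the 10 genes, TTCNNNGAA was found in the windows of Reg3b and Pigr and TATAAA in those of Reg3b, Reg3g and Reg1. The same letters occur in 8.3% and 13.6% of the 32851 RefSeq promoter windows of this length. The GC-box letters GGGCGG matched in Lcn2 (35.7% of all windows), a STAT6-type palindrome with a spacer one base longer in Reg1 and Lcn2 (6.95%), and a reduced interferon-response motif in Saa3 (3.44%), both strands searched. No match overlaps another, and a match describes the letters, not a bound site.

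Gene counts ranged from 6007554 to 13238050 per CD44plus library and from 886194 to 6963345 per CD44minus library. Levels are CPM (a gene's count divided by the library's gene counts, on the usual per-million scale) scaled by trimmed mean of M values (TMM), a factor that ran from 0.53 in Sox4cKO CD44minus replicate 2 to 1.72 in Sox4cKO CD44minus replicate 1, the widest gap between replicates. Between 64.6% and 96.6% of assigned and unassigned unique reads were counted to no gene, with the highest shares in replicate 1 of both CD44minus groups. Epcam had 472 to 2791 CPM in every library, Cd44 203 to 326 CPM in CD44plus and 5.72 to 27.2 CPM in CD44minus libraries. Sox4 had 17.8 and 25.7 CPM in Sox4cKO CD44plus, against 128 and 120 CPM in control CD44plus. To gauge reads that reach a gene without its expression, a background was taken from 1429 olfactory and vomeronasal receptor genes. These were assumed, without a test, to be largely silent in gut epithelium. Their reads per kb were scaled to the exon length of each defence gene. Intervals and detection floors cover counting error only, since reads carry no molecular identifiers.

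Reg3b, Reg3g and Pigr were among the well-expressed genes of all 8 libraries, Reg1, Reg3a and Reg4 were present at lower levels, and the other members were scarce. In reads per library, Reg3b had 1328 to 45502, Reg3g 1006 to 37303 and Pigr 2482 to 50724. Every library exceeded the predicted background for these 3 genes and for Reg3a, Reg1 and Reg4, by at least 21.3 times (Reg4 in Sox4cKO CD44minus replicate 1). Per kb of exon, Reg3g and Reg3b ranked first or second in all 4 groups and did not separate from each other. In Sox4cKO CD44plus they averaged 3230 and 3177 CPM per kb and lay above Pigr (1129 CPM per kb) without overlap. In control CD44plus they averaged 1244 and 1170 CPM per kb, and the range of Reg3b overlapped that of Pigr (1150 CPM per kb). Reg4 came after Pigr in both CD44plus groups, with 46.0 CPM per kb in Sox4cKO, where it overlapped with Reg1, and 110 CPM per kb in control, whereas Reg1 came after Pigr in both CD44minus groups by its mean, with 363 CPM per kb in Sox4cKO, where its libraries overlapped with those of Pigr and of Reg3a, and 307 CPM per kb in control, where they overlapped with neither neighbour.

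**Figure D1:**
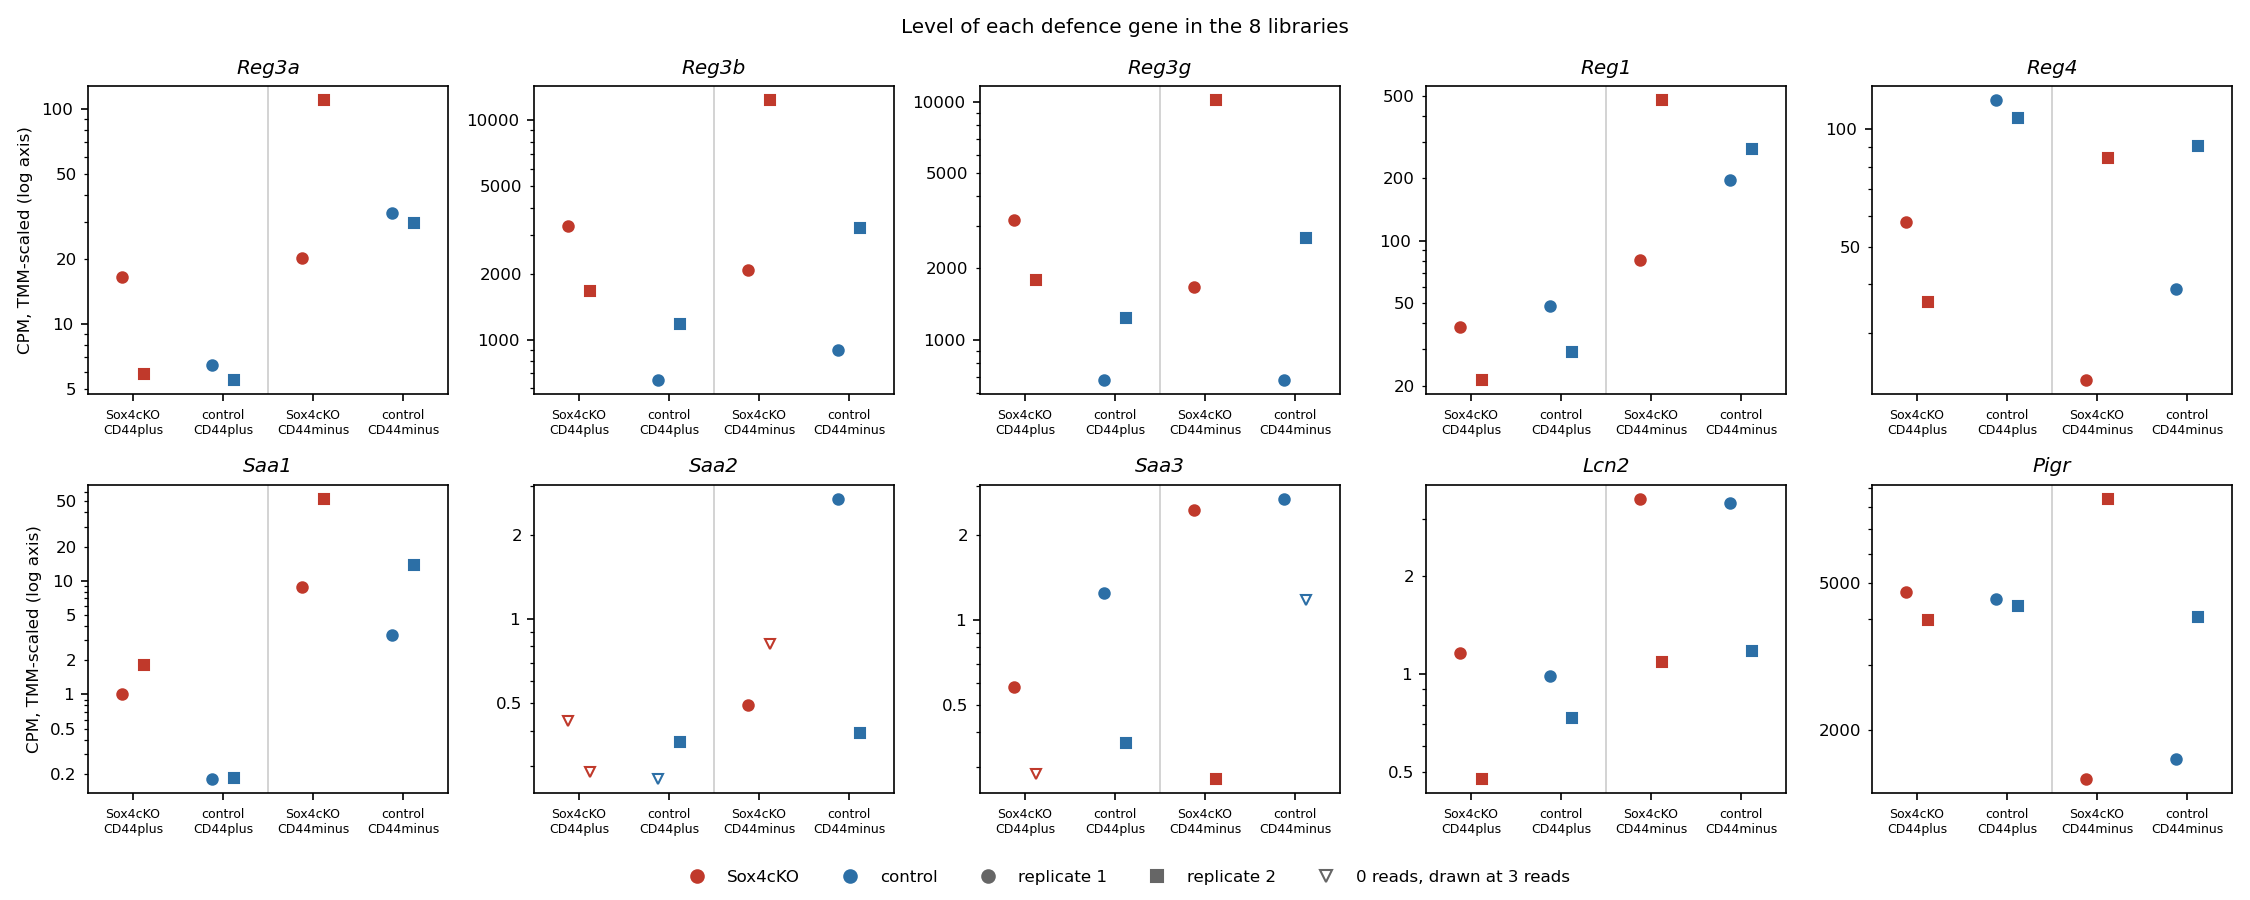
TMM-scaled CPM (log axis, each panel with its own range) of the 10 defence genes in the 8 libraries. Colours give the genotype, circles and squares the replicate, and open triangles a count of 0 drawn at the level of 3 reads. In the CD44plus panels both Sox4cKO points lie above both control points for Reg3b, Reg3g and Saa1 and below them for Reg4.

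Saa2, Saa3 and Lcn2 were at or close to the background. Saa2 had no reads in Sox4cKO CD44plus, 0 and 2 in control CD44plus, 1 and 0 in Sox4cKO CD44minus and 4 and 1 in control CD44minus, 8 in all. A count of 0 allows up to 3 reads, which is 0.391 and 0.227 CPM of gene counts in the Sox4cKO CD44plus libraries. Saa3 had 4 and 0 reads in Sox4cKO CD44plus, 14 and 2 in control CD44plus, 5 and 1 in Sox4cKO CD44minus and 4 and 0 in control CD44minus. Lcn2, which neutrophils also make, had 8 and 5 reads in Sox4cKO CD44plus, 11 and 4 in control CD44plus, 7 and 4 in Sox4cKO CD44minus and 5 and 3 in control CD44minus. The neutrophil marker list, led by Csf3r and Cxcr2, summed to 33.2 and 33.0 CPM in Sox4cKO CD44plus, 16.0 and 21.4 CPM in control CD44plus, 71.2 and 2.995 CPM in Sox4cKO CD44minus and 74.7 and 37.7 CPM in control CD44minus, and S100a8 was at 0 in 3 libraries; its part in the Lcn2 reads was not tested. The neutrophil sums include background reads. In Sox4cKO CD44minus they were 144 and 11 reads, where 35.1 and 9.36 were predicted. In Sox4cKO CD44plus they were 230 and 349 reads, where 20.0 and 6.54 were predicted. The lower limit of the 95% Poisson interval passed the predicted background in 1 of 8 libraries for Saa2, 4 for Saa3 and 7 for Lcn2, whose reads were 2.37 to 13.9 times the prediction. Saa2 did not pass the filter on low counts, so 9 of the 10 genes were tested. No fold change is given for these 3 genes, because no difference between groups was detectable at these depths.

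**Figure D2:**
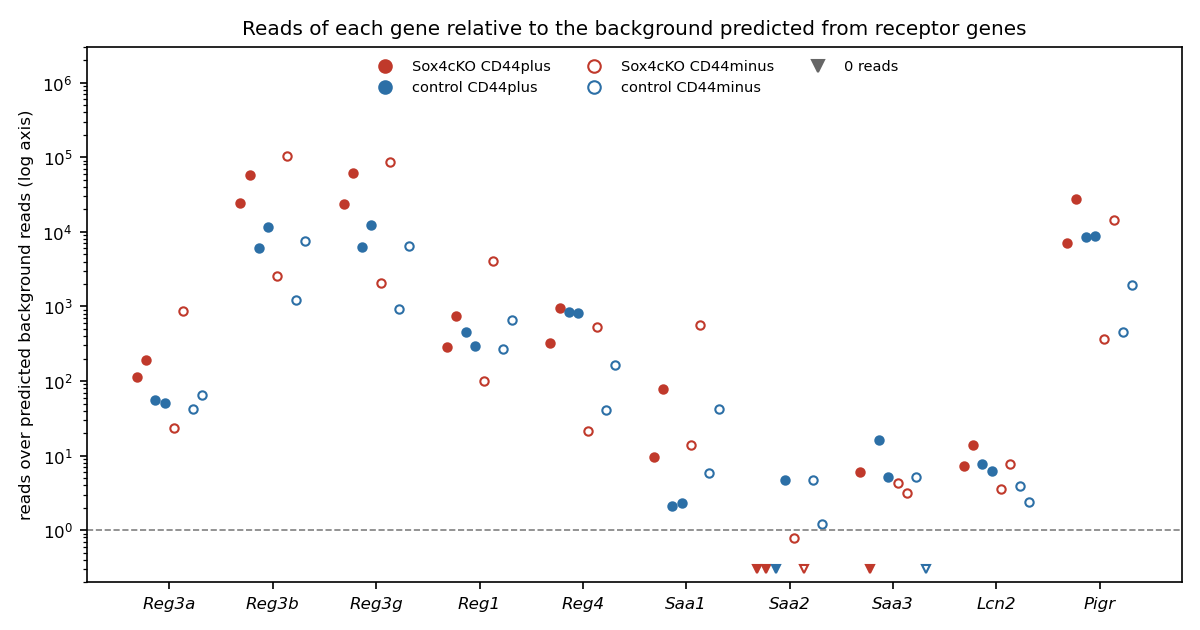
Reads of each gene in each library divided by the reads predicted from receptor genes (log axis, dashed line at 1). Filled points are CD44plus and open points CD44minus libraries, coloured by genotype, and triangles at the lower edge are counts of 0. Reg3a, Reg3b, Reg3g, Reg1, Reg4 and Pigr lie above 20 in every library, Saa1 spans the range between them and the scarce genes, and Saa2 is at 0 in 4 libraries.

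In the CD44plus gate, where the study asks what loss of Sox4 changes among crypt-enriched cells, the antibacterial lectins and Saa1 had higher values and Reg4 lower values in both Sox4cKO libraries, but no difference passed the test. Reg3b had 3311 and 1665 CPM in Sox4cKO CD44plus, against 651.5 and 1180 CPM in control CD44plus. Reg3g had 3197 and 1785 CPM in Sox4cKO CD44plus, against 677 and 1240 CPM in control CD44plus. For both lectins the lower Sox4cKO library was replicate 2 and the higher control library was replicate 2, and the groups did not overlap. Reg3b was 2.72-fold higher (log2 fold change 1.44, SE 1.48) and Reg3g 2.60-fold higher (1.38, SE 1.44), with an adjusted p of 1 each by edgeR's quasi-likelihood test over all 20427 genes tested. Without Sox4cKO CD44plus replicate 1 the log2 fold changes were 0.78 for Reg3b and 0.81 for Reg3g, and without control CD44plus replicate 2 they were 1.93 and 1.88. The fit pools its spread over all 4 groups: the biological coefficient of variation was 0.616 over the 8 libraries, 0.335 over the 4 CD44plus libraries alone and 0.76 over the 4 CD44minus libraries alone. Fitted on the CD44plus libraries alone, edgeR called 17 genes and none of these defence genes.

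Saa1 was a low-count gene in this gate. It had 7 and 19 reads in Sox4cKO CD44plus (1.01 and 1.80 CPM), against 2 and 1 reads in control CD44plus (0.179 and 0.183 CPM). The control reads did not pass the predicted background and both Sox4cKO libraries did. The ratio of the summed levels, 26 reads against 3, was 8.27, with a 95% exact counting interval of 2.53 to 42.7 that leaves out the spread between animals. Its unadjusted edgeR p was 0.0236 and its adjusted p 1.

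Reg4, a lectin of enteroendocrine and goblet cells, went the other way. It had 57.8 and 36.1 CPM in Sox4cKO CD44plus, against 119 and 107 CPM in control CD44plus, without overlap (log2 fold change -1.26, SE 0.70, adjusted p 1 by edgeR). The enteroendocrine marker list, led by Chgb and Gip, had lower values in the same libraries: 9 of its 10 genes were below both control libraries in both Sox4cKO libraries, and its summed level was 1277 and 1785 CPM in Sox4cKO CD44plus, against 4823 and 6040 CPM in control CD44plus. The goblet list, led by Fcgbp and Muc2, summed to 9059 and 7976 CPM in Sox4cKO CD44plus and to 8885 and 8374 CPM in control CD44plus. The part of either cell type in the Reg4 values was not tested, and in bulk libraries fewer cells of a type and less RNA per cell cannot be told apart.

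Reg3a, Reg1 and Pigr overlapped between the genotypes in CD44plus. Reg3a, the third Reg3 lectin, had 16.5 and 5.87 CPM in Sox4cKO CD44plus, against 6.43 and 5.47 CPM in control CD44plus. Only replicate 1 of Sox4cKO stood apart, and without it the log2 fold change of 0.89 (SE 0.70) became -0.14. Reg1, which is best known from the pancreas, had 38.3 and 21.2 CPM in Sox4cKO CD44plus and 48.3 and 29.0 CPM in control CD44plus (log2 fold change -0.38, SE 0.82). Pigr had 4717 and 3973 CPM in Sox4cKO CD44plus and 4528 and 4327 CPM in control CD44plus, a log2 fold change of -0.03 (SE 1.51). With an SE of that size, the near-equal means do not show equal expression.

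None of the 9 genes tested passed an adjusted p of 0.05 in CD44plus (0% of all genes tested did), 1 did at an unadjusted p under 0.05 (Saa1, against 0.627% of all genes), and DESeq2's Wald test called none. Both Sox4cKO libraries lay above both controls for 3 of the 10 genes and below them for 1, where 14.2% and 16.4% of all genes tested did so by the same rule. With 2 libraries against 2, an exact permutation test of a single gene cannot go below a two-sided p of 0.333. The labels give separate animals as replicates, so these values measure the spread between animals, sorts and libraries together.

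In the CD44minus gate the 2 Sox4cKO libraries differed from each other by more than the genotypes did. Reg3b had 2083 and 12390 CPM in Sox4cKO CD44minus, against 894 and 3219 CPM in control CD44minus. Reg3g had 1663 and 10160 CPM in Sox4cKO CD44minus, against 677 and 2668 CPM in control CD44minus. For both, replicate 2 was the higher library in each genotype, and Sox4cKO replicate 1 lay between the 2 controls. Reg3b was 3.52-fold higher (log2 fold change 1.82, SE 1.495) and Reg3g 3.53-fold higher (1.82, SE 1.45), with an adjusted p of 0.9998 each by edgeR.

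Saa1 followed the same order of libraries at a far lower level. It had 18 and 193 reads in Sox4cKO CD44minus (8.89 and 52.5 CPM), against 5 and 35 reads in control CD44minus (3.37 and 13.8 CPM), a log2 fold change of 1.82 (SE 0.92). Reg3a had 20.3 and 110 CPM in Sox4cKO CD44minus and 33.0 and 29.5 CPM in control CD44minus (1.07, SE 0.69). Reg1 had 80.5 and 477 CPM in Sox4cKO CD44minus, on either side of the 196 and 276 CPM of control CD44minus. Reg4 had 22.7 and 84.1 CPM in Sox4cKO CD44minus and 39.0 and 90.3 CPM in control CD44minus. Pigr had 1475 and 8419 CPM in Sox4cKO CD44minus and 1670 and 4034 CPM in control CD44minus, so even the IgA receptor differed 5.71-fold between the Sox4cKO replicates.

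All 10 genes overlapped between the genotypes in this gate, where 6.5% of all genes tested lay above both controls in both Sox4cKO libraries and 5.96% below them. None was called by edgeR at the adjusted threshold (0% of all genes tested), by DESeq2's Wald test or at an unadjusted p under 0.05 (0.568% of all genes). The result rests on which Sox4cKO library is kept. Without Sox4cKO CD44minus replicate 1, the library with the largest share of background reads, edgeR called Reg3a, Reg3b, Reg3g and Saa1 higher in Sox4cKO, with log2 fold changes of 1.81, 2.58, 2.59 and 2.53 and adjusted p-values of 0.00957, 0.0402, 0.0353 and 0.0108. In that fit 37.7% of all genes were called (27.5% higher and 10.2% lower), so the 4 calls among 9 genes are no result particular to these genes. Without Sox4cKO CD44minus replicate 2, the log2 fold change was 0.01 for Reg3b, -0.01 for Reg3g and 0.02 for Saa1, with an adjusted p of 1 for each. Either lone library was assumed to vary like the other groups.

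**Figure D3:**
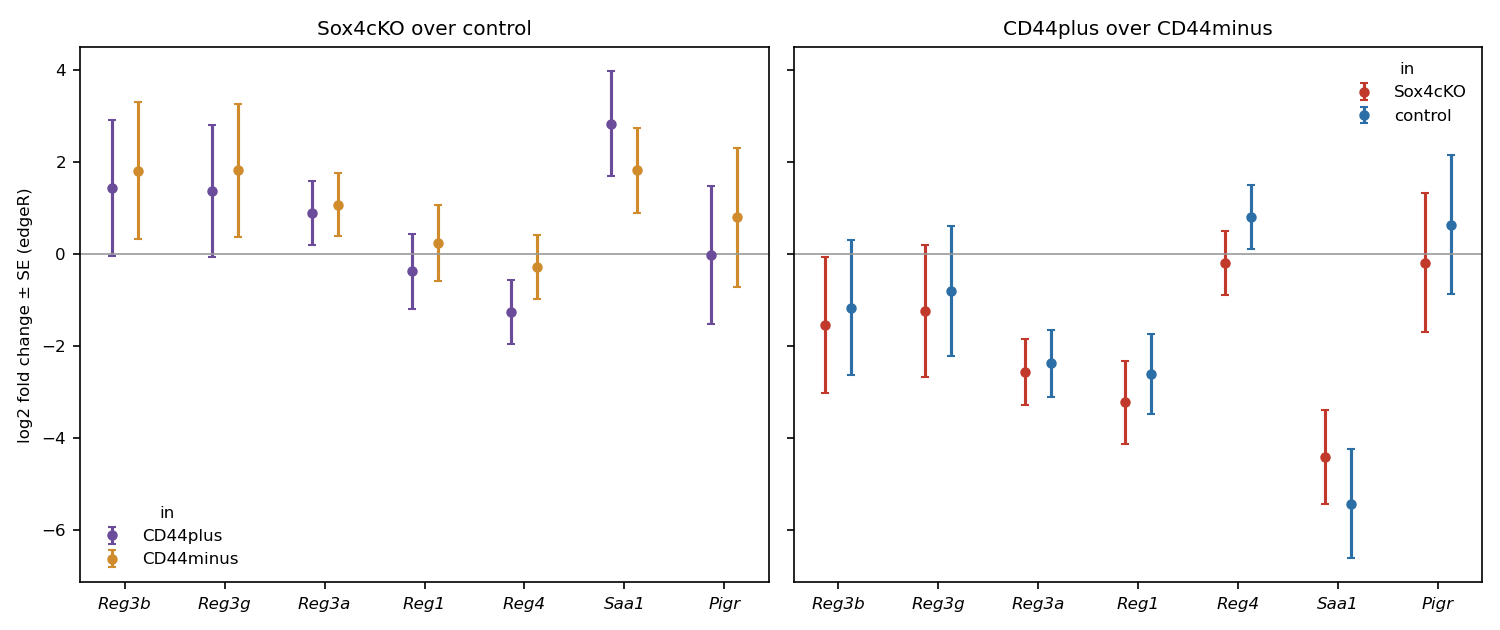
Log2 fold changes with their SE from edgeR for the 7 genes with enough reads, for Sox4cKO over control in each gate (left) and CD44plus over CD44minus in each genotype (right). Reg3b, Reg3g, Reg3a and Saa1 are above 0 and Reg4 below 0 in both gates on the left. On the right Saa1 is lowest, at -4.42 in Sox4cKO and -5.44 in control.

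Because the scaling of the CD44minus libraries was uncertain, reads were also set against those of Pigr in the same library, a ratio that no scaling of libraries can change. This ratio was chosen after the levels had been seen, and it shows unequal change between 2 genes, not which of them changed. Reg3b had 70.2 and 41.9 reads per 100 Pigr reads in Sox4cKO CD44plus, against 14.4 and 27.3 in control CD44plus. In CD44minus it had 141 and 147 reads per 100 Pigr reads in Sox4cKO, against 53.5 and 79.8 in control. The 2 Sox4cKO CD44minus libraries, which were 5.95-fold apart in CPM, thus nearly coincided on this measure, and the genotypes did not overlap in either gate.

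Reg3g followed with 67.8 and 44.9 reads per 100 Pigr reads in Sox4cKO CD44plus, against 14.96 and 28.7 in control CD44plus. In CD44minus it had 113 and 121 reads per 100 Pigr reads in Sox4cKO, against 40.5 and 66.1 in control. Saa1 had 0.0214 and 0.0453 reads per 100 Pigr reads in Sox4cKO CD44plus, against 0.0039 and 0.0042 in control CD44plus, and in CD44minus 0.603 and 0.624 in Sox4cKO, against 0.202 and 0.341 in control. All 3 were thus higher in both Sox4cKO libraries of both gates. For Saa1 in CD44plus this rests on 7 and 19 reads in Sox4cKO, against 2 and 1 in control. Those control reads did not pass the predicted background.

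Reg4 was lower relative to Pigr in both gates. It had 1.23 and 0.908 reads per 100 Pigr reads in Sox4cKO CD44plus, against 2.62 and 2.47 in control CD44plus, and in CD44minus 1.54 and 0.999 in Sox4cKO, against 2.34 and 2.24 in control. Reg1 overlapped in CD44plus (0.812 and 0.534 in Sox4cKO, 1.07 and 0.671 in control) and was lower in CD44minus (5.46 and 5.67 in Sox4cKO, against 11.7 and 6.85 in control). Reg3a was higher in CD44plus (0.349 and 0.148 in Sox4cKO, against 0.142 and 0.127 in control) and overlapped in CD44minus. Per 100 Vil1 reads instead, Reg3a overlapped in CD44plus (2.25 and 0.947 in Sox4cKO, 1.05 and 1.04 in control). Reg1 was then lower in CD44plus (5.24 and 3.42, against 7.88 and 5.49) and in CD44minus (7.84 and 8.88, against 17.9 and 12.1). The order of the genotypes for Reg3a and Reg1 thus depended on the reference gene. That of Reg3b, Reg3g, Saa1 and Reg4 was the same with either. Relative to Pigr, 3 of the 8 other genes tested were higher and 1 lower in both gates, where 1.26% and 0.377% of all 20426 other genes tested were by the same rule. Within 1 gate, 12% of those genes were higher and 14.5% lower in CD44plus, and 4.24% higher and 1.87% lower in CD44minus. The gates came from the same 4 animals and are not independent, and no test of these ratios was run, since 2 animals against 2 cannot go below a two-sided exact p of 0.333.

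**Figure D4:**
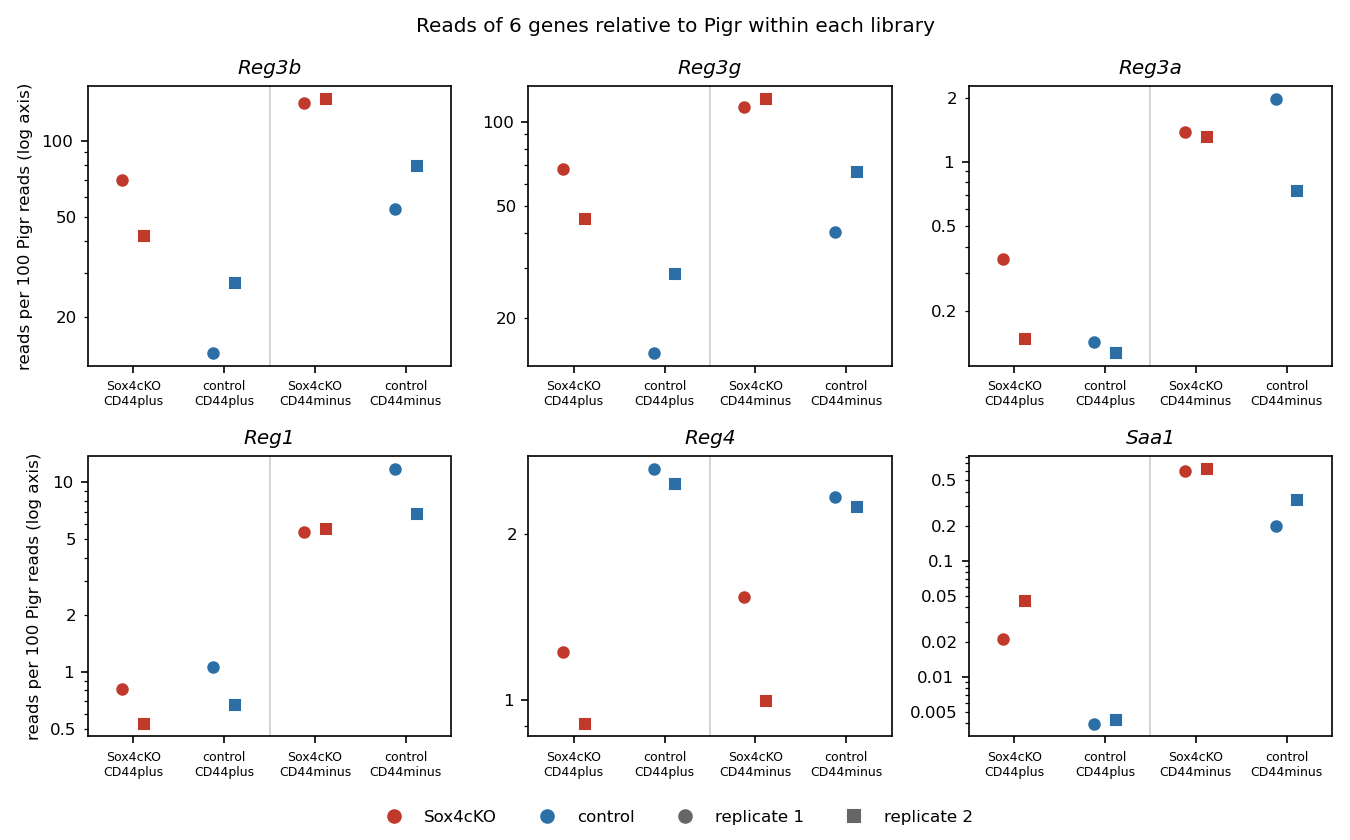
Reads of 6 defence genes per 100 Pigr reads in the same library (log axis, each panel with its own range). Circles and squares are the replicates and colours the genotypes. Both Sox4cKO points lie above both control points in both gates for Reg3b, Reg3g and Saa1 and below them for Reg4, whereas Reg3a and Reg1 overlap in 1 gate each.

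Whether the genotype effect differed between the gates was tested directly. The difference of the log2 fold changes, CD44plus minus CD44minus, was 1.01 (SE 1.34) for Saa1, -0.99 (SE 0.98) for Reg4, -0.82 (SE 2.13) for Pigr, -0.62 (SE 1.16) for Reg1, -0.44 (SE 2.00) for Reg3g, -0.37 (SE 2.05) for Reg3b and -0.18 (SE 0.99) for Reg3a. None of the 9 genes tested passed the threshold by edgeR (0% of all genes tested; adjusted p of 1 for each gene named) or by DESeq2, and none had an unadjusted p under 0.05, against 0.245% of all genes. On library totals without TMM the differences of Reg3a, Reg3b, Reg3g and Reg1 were above 0.

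Between the gates, Saa1, Reg1 and Reg3a had lower values in CD44plus than in CD44minus in both genotypes, without overlap. Saa1 was the member called in both genotypes. In Sox4cKO it had the 1.01 and 1.80 CPM of CD44plus against the 8.89 and 52.5 CPM of CD44minus, without overlap (log2 fold change -4.42, SE 1.02, adjusted p 0.0279 by edgeR, lower in both animals). In control it had 3 reads in CD44plus against 40 in CD44minus, and the ratio of summed levels was 0.0181, with an exact counting interval of 0.00359 to 0.0569 (adjusted p 0.0253 by edgeR, whose fold change depends on the prior count at these reads). The call in Sox4cKO was lost without CD44plus replicate 1, CD44plus replicate 2 or CD44minus replicate 2 (adjusted p 0.161, 0.24 and 0.0706). The call in control was lost without CD44plus replicate 1, CD44plus replicate 2 or CD44minus replicate 2 (0.22, 0.233 and 0.38). Alb, an abundant liver transcript, had 1 to 18 reads per library. The 7 genes of the hepatocyte list, Alb and Apob among them, were also summed. In CD44plus the sums were 459 and 338 CPM in Sox4cKO and 659 and 520 CPM in control. In CD44minus they were 1361 and 6394 CPM in Sox4cKO and 1781 and 3156 CPM in control. As reads, these CD44minus sums were 2755 and 23486 in Sox4cKO and 2646 and 8035 in control. Alb was thus a small part of them, and the sums are not a measure of liver RNA alone. Of the 6 genes of this list tested, 5 had a negative log2 fold change between gates in each genotype. Their part in the Saa1 values was not tested.

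Reg1 had 38.3 and 21.2 CPM in CD44plus and 80.5 and 477 CPM in CD44minus of Sox4cKO, without overlap (log2 fold change -3.23, SE 0.89, adjusted p 0.0624 by edgeR). In control it had 48.3 and 29.0 CPM in CD44plus, against 196 and 276 CPM in CD44minus (-2.61, SE 0.87, adjusted p 0.112). Reg3a was 5.91-fold lower in CD44plus of Sox4cKO (-2.56, SE 0.72, adjusted p 0.0651) and 5.21-fold lower in CD44plus of control (-2.38, SE 0.73, adjusted p 0.0865), without overlap in either genotype. With the animal as a block, which the shared animals allow, edgeR called Reg3a lower in CD44plus of Sox4cKO (-2.30, adjusted p 0.0346) and of control (-2.39, adjusted p 0.00744) and Reg1 lower in CD44plus of control (-2.63, adjusted p 0.0306). Without the block, leaving out Sox4cKO CD44minus replicate 1 also made calls in Sox4cKO of Reg1 (-4.01, adjusted p 4.64e-06) and Reg3a (-3.33, 1.24e-05), and leaving out Sox4cKO CD44minus replicate 2 of Reg1 (-1.44, 0.0255). In control, Reg1 and Reg3a were called without Sox4cKO CD44minus replicate 1 (adjusted p 9.64e-05 and 0.000199) or replicate 2 (0.000354 and 0.00254), and Reg3a without Sox4cKO CD44plus replicate 1 (0.0457), although none of these libraries is of the control group.

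Reg3b and Reg3g overlapped between the gates in both genotypes, with log2 fold changes of -1.54 (SE 1.48) and -1.25 (SE 1.43) in Sox4cKO and of -1.17 (SE 1.47) and -0.80 (SE 1.42) in control. Reg4 was 1.74-fold higher in CD44plus of control (0.80, SE 0.70) and within 0.20 of no difference on the log2 scale in Sox4cKO. Pigr was at 4528 and 4327 CPM in CD44plus of control, above the 1670 and 4034 CPM of CD44minus, and overlapped in Sox4cKO. Neither passed the test in either genotype.

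Of the 9 genes tested, Saa1 alone was called in each genotype, as lower in CD44plus. Of all genes, 2.58% were called in Sox4cKO (0.925% lower, 1.65% higher) and 2.46% in control (0.445% lower, 2.01% higher). At an unadjusted p under 0.05, 3 of the 9 genes passed in each genotype (Reg1, Reg3a and Saa1), where 17.7% of all genes in Sox4cKO and 23% in control did. With the animal as a block, 2 of the 9 were called lower in Sox4cKO and 3 in control, where 8.37% of all genes in Sox4cKO (4.43% lower, 3.95% higher) and 17.9% in control (10.5% lower, 7.37% higher) were called. Without overlap, 3 of the 10 genes were lower and none higher in Sox4cKO, where 16.2% and 21.1% of all genes tested were, and 5 were lower and 2 higher in control, where 41% and 38.7% were. The 5 include Lcn2 and the untested Saa2, whose reads were at or close to the predicted background. Of the 9 genes tested, 4 were lower and 2 higher in control. The shares in control are close to those of all genes and say little about these genes. The enterocyte marker list, led by Apoa4 and Apoa1, had lower values in the same libraries: all 10 of its genes were lower in both CD44plus libraries of each genotype, and its sum was 1633 to 1973 CPM in CD44plus of Sox4cKO, against 8981 to 47240 CPM in CD44minus, and 1378 to 1700 CPM in CD44plus of control, against 11490 to 22090 CPM in CD44minus. The Paneth list, led by Lyz1 and Defa24, summed to 4967 to 5902 CPM in CD44plus of Sox4cKO, against 6113 to 33610 CPM in CD44minus, and to 4294 to 4681 CPM in CD44plus of control, against 9413 to 20460 CPM in CD44minus. Their part in the defence genes' values was not tested.

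A measure that does not depend on depth is the balance between Reg3b and Reg3g. Of the reads of both genes together, Reg3b took 50.9% and 48.3% in CD44plus of Sox4cKO, against 55.6% and 54.9% in CD44minus, and 49.0% and 48.8% in CD44plus of control, against 56.9% and 54.7% in CD44minus. The exact binomial 95% intervals of the CD44plus libraries ended at 51.3% at most and those of the CD44minus libraries began at 53.9% at least. Paired by animal, the share differed by -6.30 percentage points, CD44plus minus CD44minus (SD 1.31, n = 4 animals, lower in 4 of 4), with means of 49.2% ± 1.14 in CD44plus and 55.5% ± 0.99 in CD44minus (SD, n = 4). An exact two-sided sign-flip permutation test gave p = 0.125, the smallest that 4 animals allow. In every library the reads were at least 1207 times the predicted background for Reg3b and 929 times for Reg3g. The genotypes overlapped on this measure in both gates. It was noticed in these data and has no other samples behind it.

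**Figure D5:**
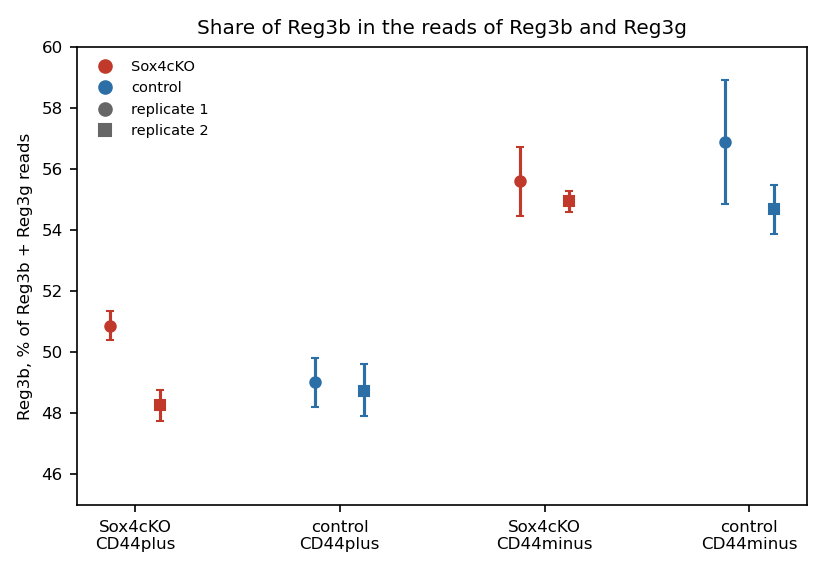
Share of Reg3b in the reads of Reg3b and Reg3g (%), per library, with exact binomial 95% intervals; the axis runs from 45% to 60%. The 4 CD44plus libraries lie between 48.3% and 50.9% and the 4 CD44minus libraries between 54.7% and 56.9%, with both genotypes in each range.

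Beside Reg1, markers of the pancreas were read in the same libraries. The 11 genes of the pancreatic acinar list, led by Cela1 and Cel, summed to 11.9 and 14.0 CPM in Sox4cKO CD44plus, 13.2 and 14.6 CPM in control CD44plus, 59.3 and 11.2 CPM in Sox4cKO CD44minus and 49.8 and 29.8 CPM in control CD44minus. These sums include background reads. In replicate 1 of CD44minus they were 120 reads in Sox4cKO and 74 in control, where 36.3 and 24.1 were predicted. In Sox4cKO CD44plus replicate 2 they were 148 reads, where 6.76 were predicted. The higher CPM in CD44minus is therefore no measure of more pancreatic RNA. Amy2a5 of that list had no reads in any library, and the part of these transcripts in the Reg1 values was not tested.

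By the mean absolute difference of centred log2 CPM over the 8 libraries, the gene most like Reg3g among 10893 compared was Reg3b (0.18). It was followed by Duoxa2 (0.26) and Duox2 (0.32), the maturation factor and the enzyme of an epithelial hydrogen peroxide source, and by Bcl2l15 (0.35) and Car4 (0.39). Saa1 was nearest to Slc34a2 (0.35), a phosphate transporter, Slc51b (0.37), a bile acid exporter subunit, Proz (0.42), Dpep1 (0.44) and Ceacam20 (0.46). Pigr was nearest to Cyc1 (0.068), Ak3 (0.07), B4galnt2 (0.075), Cask (0.079) and Atp5g3 (0.079). These distances are descriptions over 8 libraries that share depth and scaling.

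Of the other Reg and Saa relatives and lectins, 4 of 6 genes had a positive log2 fold change in Sox4cKO CD44plus (median 0.21, against 0 over all genes) and none was called. Itln1, an intelectin of Paneth and goblet cells, had 1584 and 1319 CPM in Sox4cKO CD44plus, against 977 and 825 CPM in control CD44plus, without overlap. Zg16, a mucus lectin of goblet cells, had 236 and 125 CPM in Sox4cKO CD44plus and 174 and 164 CPM in control CD44plus. Clec2h had 85.4 and 59.5 CPM in Sox4cKO CD44plus and 54.7 and 60.9 CPM in control CD44plus.

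A list of other antibacterial genes had 18 tested members, with Nos2, Duox2, Duoxa2 and Gsdmc2 among them, and none was called between genotypes. In Sox4cKO CD44plus 13 had a positive log2 fold change (median 0.48), where 49.95% of all genes did. In Sox4cKO CD44minus 15 did (median 0.74, against 0.19 over all genes), where 57.49% of all genes did. All 10 enterocyte genes (median 0.729), all 10 Paneth genes (0.467) and all 9 goblet genes (0.775) were positive there too. Of the enteroendocrine list 4 of 10 genes were positive there, and of the neutrophil list 2 of 10. Dmbt1, a scavenger receptor of the mucus, had 6060 and 4324 CPM in Sox4cKO CD44plus, against 4143 and 3337 CPM in control CD44plus. Lyz1, the Paneth cell lysozyme, had 2142 and 1658 CPM in Sox4cKO CD44plus and 1723 and 1193 CPM in control CD44plus, and Lypd8, which holds back flagellated bacteria, had 1509 and 930.5 CPM and 980 and 911.5 CPM in the same groups. Nos2, the inducible nitric oxide synthase, had 221 and 795 CPM in Sox4cKO CD44minus, against 40.4 and 131 CPM in control CD44minus, without overlap (log2 fold change 2.56, SE 0.87, adjusted p 0.9998 by edgeR). Between gates, Lyz2 rose in CD44plus of Sox4cKO (3.16, adjusted p 0.018 by edgeR) and of control (2.99, adjusted p 0.0267). Lyz2 is also on the macrophage and dendritic marker list. Of the 7 tested genes of that list, 7 were positive between gates of Sox4cKO and 6 between gates of control. The part of such cells in the Lyz2 values was not tested. Mptx2 and Nos2 fell in CD44plus of Sox4cKO (-3.81 and -3.63, adjusted p 0.0489 and 0.0414 by edgeR).

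The interleukin-22 and STAT3 list, the known route to the Reg3 genes, had 14 of its 16 genes positive in Sox4cKO CD44plus (median log2 fold change 0.50, against 0 over all genes) and 13 positive in Sox4cKO CD44minus (median 0.86, against 0.19), with none called in either. Of all genes, 49.95% were positive in CD44plus and 57.49% in CD44minus. The enterocyte, Paneth and goblet lists were also positive in CD44minus, so the count there is not particular to this list. Stat3 itself had 201 and 299 CPM in Sox4cKO CD44plus, against 170 and 195 CPM in control CD44plus, without overlap. Jak1 had 276 and 464 CPM in Sox4cKO CD44plus and 284 and 307 CPM in control CD44plus. Il22ra1, the receptor chain that makes epithelium sensitive to interleukin-22, had 113 and 104 CPM in Sox4cKO CD44plus, against 120 and 114 CPM in control CD44plus. Il18, an epithelial cytokine, fell in CD44plus relative to CD44minus of Sox4cKO (log2 fold change -2.92, adjusted p 0.029 by edgeR).

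Transcripts of immune cells were present in the CD44plus gate. Il22 had 36 and 88 reads in Sox4cKO CD44plus (5.20 and 8.33 CPM), against 2 and 20 reads in control CD44plus (0.179 and 3.65 CPM), and 0 to 4 reads in the CD44minus libraries; the gene was picked out after its values were seen. All 7 T cell genes, led by Gzma and Itgae, were positive and summed to 1941 and 4636 CPM in Sox4cKO CD44plus and 1840 and 2785 CPM in control CD44plus. All 6 mast cell genes, led by Mcpt1 and Mcpt2, were positive, at 3635 and 17490 CPM in Sox4cKO CD44plus and 1883 and 3122 CPM in control CD44plus. On both of these sums and for Il22, replicate 2 of Sox4cKO was the highest of the 4 CD44plus libraries. For Reg3b and Reg3g, replicate 2 was the lower Sox4cKO CD44plus library and lay above both control libraries. For Reg3a it was the lower Sox4cKO CD44plus library and lay between the control libraries. The part of these immune cell transcripts in the Reg3 values was not tested.

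Marker genes of gut regions were compared in the same libraries. In CD44plus, 7 of 7 genes that mark the ileum and colon had a positive log2 fold change and 2 lay above both controls, with sums of 222 and 190 CPM in Sox4cKO and 136 and 165.5 CPM in control, led by Fabp6 and Osr2. Of the proximal list, led by Onecut2 and Gata4, 1 of 6 genes was positive and 4 lay below both controls, with sums of 251 and 248 CPM in Sox4cKO and 459 and 345 CPM in control. By the same rule, 14.2% of all genes tested lay above both controls in CD44plus and 16.4% below them. In CD44minus, 6 of the 7 ileum and colon genes and 5 of the 6 proximal genes had a positive log2 fold change. None of these genes was called between genotypes in either gate. The labels give no gut segment, and the part of segment in the lectins' values was not tested.

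Among 23 genes for microbial sensing and NF-kB, 18 were positive in Sox4cKO CD44plus (median log2 fold change 0.33) and 20 in Sox4cKO CD44minus (median 0.66), and none was called. By comparison, 49.95% of all genes were positive in CD44plus and 57.49% in CD44minus. Tnfaip3, a brake on NF-kB, had 286 and 635 CPM in Sox4cKO CD44plus and 212 and 327 CPM in control CD44plus. Nfkbiz had 198.5 and 375 CPM in Sox4cKO CD44plus and 160 and 205.5 CPM in control CD44plus, and Nfkbia 129 and 254 CPM and 112 and 135 CPM in the same groups, all overlapping between the genotypes.

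Of 8 genes for IgA transport and recruitment other than Pigr, 4 were positive in Sox4cKO CD44plus (median 0.02) and 7 in Sox4cKO CD44minus (median 1.02), and none was called between genotypes. In CD44minus 57.49% of all genes were positive, as were the enterocyte, Paneth and goblet lists. Ccl25, a chemokine that draws IgA-producing cells to the small intestine, had 200 and 174 CPM in Sox4cKO CD44plus and 207 and 195 CPM in control CD44plus. Irf1 had 190 and 258 CPM in Sox4cKO CD44plus and 173 and 234 CPM in control CD44plus. Ifngr1, an interferon-gamma receptor chain, had 164 and 262 CPM in Sox4cKO CD44plus and 155 and 159 CPM in control CD44plus, without overlap. Igj, the joining chain of IgA made by plasma cells, rose in CD44plus relative to CD44minus of Sox4cKO (adjusted p 0.0116 by edgeR) and of control (adjusted p 0.0462), with 248 and 426 reads in CD44plus of Sox4cKO, against 2 and 0 in CD44minus, and 136 and 173 reads in CD44plus of control, against 3 and 6 in CD44minus.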

How the data were processed

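RNA of 8 libraries was recovered with the RNAqueous Micro kit and made into libraries with the SMARTer Stranded Total RNA-seq Pico Input kit, per the labels' protocols. Reads were processed with bcl2fastq 2.17.4, Trimmomatic 0.36, STAR 2.2.5b and HTSeq 0.6.1p1 on mm10, per the submitters' processing notes; the strand setting of counting is not given in the sources used here. The authors deposited raw counts per gene symbol, with no normalization. Reads counted to no gene (64.6% to 96.6% of each library's listed reads) were left out of library sizes and tests.

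The 10 genes and all lists were chosen with earlier results of these data known. Genes were kept by filterByExpr with a minimum count of 10 (20427 of 23366) and scaled by TMM. They were tested over all 8 libraries with edgeR 4.0.16 in R 4.3.3 (quasi-likelihood test, Benjamini-Hochberg adjustment over all genes tested, threshold 0.05). The code of the fit was run on simulated counts with known changes. Those changes were larger than those of Reg3b and Reg3g between genotypes, and the simulated spread was smaller than in these libraries. The run therefore does not measure the power or error of the tests reported here. Named were all 10 genes and the 5 genes most like each of Reg3g, Saa1 and Pigr. Of each of the 5 defence and pathway lists, the called genes and the 3 most abundant genes were named. The cell type and region lists described are given by counts and summed level. Their 2 most abundant genes are named, whether or not others were called, with exceptions. Of the hepatocyte list Alb and Apob are named. Of the macrophage and dendritic list Lyz2 is named and no sum is given. The table names show which animal each library came from, so the gates are paired by animal; across genes, an animal's departures from its group mean in both gates had r of 0.526 in Sox4cKO and 0.103 in control. Alternatives were DESeq2 1.42.0 size factors or Wald test, library totals, no filter, fewer libraries, a block and leaving out each library. Promoters come from RefSeq (GRCm38.p6), with all 10 genes matched, and gene positions from GENCODE M21.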

Additional observations from a re-analysis of the deposited data

Results flagged for a closer look

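Igj, the joining chain gene of plasma cells, had genotype differences of opposite sign in the gates, but the CD44minus side rests on 0 to 6 reads per library. Such counts are too few to give a direction. It had 248 and 426 reads in Sox4cKO CD44plus, against 136 and 173 in control CD44plus, and 2 and 0 reads in Sox4cKO CD44minus, against 3 and 6 in control CD44minus. The log2 fold change in CD44plus minus that in CD44minus was 3.28 (SE 1.37), and this difference did not pass edgeR's test (adjusted p 1).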

How the results depend on the processing

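In CD44plus, 0 genes differed between genotypes, against 17 with only those 4 libraries fitted, and no alternative called a defence gene. For CD44plus against CD44minus, called genes (defence genes) in Sox4cKO numbered 527 (1), against 2042 (2) on library totals, 1765 (3) by DESeq2's Wald test, 884 (3) unfiltered and 0 (0) with 4 libraries, and with DESeq2 size factors 2 defence genes were called. In control they numbered 502 (1), against 2099 (3), 2199 (3), 994 (2) and 9876 (3) under the same alternatives except size factors. Library totals moved the median log2 fold change of all genes by -0.312 for genotype in CD44minus, -0.241 and -0.583 for the gates in Sox4cKO and control, and 0.351 for the difference between gates; size factors moved the gates by -0.242 and -0.335.

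On library totals the sign turned for Reg1 (-0.676) and Pigr (-0.047) for genotype in CD44minus, for Pigr (0.087) between gates of Sox4cKO, and for Reg3a (0.721), Reg3b (0.356), Reg3g (0.28) and Reg1 (0.2) in the difference between gates. With 4 libraries Reg1 was at -0.294 for genotype in CD44minus. The difference for Reg3a was 0.036 with size factors and 0.054 by the Wald test. The cause was not tested.

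With the replicate number as a block, 1 gene was called between genotypes in CD44plus; across genotypes only the number is shared, and same-numbered deviations had r of 0.275 in CD44plus and 0.6 in CD44minus. With the animal as a block, 1710 genes and 2 defence genes were called between gates of Sox4cKO and 3659 and 3 in control, the sign turned for Reg4 (0.034) and Pigr (0.296) between gates of Sox4cKO and for Reg3a (0.091) in the difference, and no other call on these genes changed.

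Leaving out 1 library at a time, genotype in CD44plus called 0 to 24 genes and genotype in CD44minus 0 to 7620 genes and 0 to 4 defence genes. The gates called 11 to 8436 genes and 0 to 3 defence genes in Sox4cKO and 0 to 7358 and 0 to 3 in control, and the difference 0 to 255 genes. The most genes were called without Sox4cKO CD44minus replicate 1, except between gates of Sox4cKO, where it was replicate 2. Ranges of log2 fold change that crossed 0 were, for genotype in CD44plus, -0.14 to 1.462 for Reg3a, -0.995 to 0.035 for Reg1 and -0.266 to 0.092 for Pigr. For genotype in CD44minus they were -0.623 to 1.809 for Reg3a, -0.014 to 3.116 for Reg3g, -1.557 to 0.998 for Reg1, -1.531 to 0.45 for Reg4 and -0.956 to 1.557 for Pigr. Between gates of Sox4cKO they were -2.316 to 0.263 for Reg3b, -2.028 to 0.589 for Reg3g, -0.845 to 1.048 for Reg4 and -0.955 to 1.565 for Pigr, and of control -1.82 to 0.025 for Reg3b and -1.483 to 0.492 for Reg3g. In the difference they were -0.938 to 1.508 for Reg3a, -1.565 to 1.429 for Reg3b, -1.738 to 1.391 for Reg3g, -1.387 to 1.167 for Reg1, -1.714 to 0.264 for Reg4, -0.342 to 2.816 for Saa1 and -1.583 to 0.929 for Pigr. Saa1 between gates ranged over -5.174 to -2.623 in Sox4cKO and -6.107 to -4.083 in control. A lone library was assumed to vary like the other groups. Saa1 gave no genotype value with the 4 CD44plus libraries, where it failed the filter, and the difference needs all 8. Depth limits Saa1 in control CD44plus and Saa2, Saa3 and Lcn2 throughout.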
